A study of Mus musculus with 9 samples.

Results

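Leukocyte integrins and adhesion molecules were followed through 10 transcripts: the integrin subunit genes Itga4, Itga5, Itgal, Itgam, Itgax, Itgb1, Itgb2 and Itgb7, and the adhesion genes Icam1 and Selplg. They were taken by symbol from the 55367 symbols counted in every library, and all 10 were found and had enough reads to be tested, among 13707 tested genes. RNA came from monocytes of adult mice that had spent 4 h with P7 platelets, with adult platelets or with control buffer and had then been washed. The sample titles call the P7 platelets Neoplts, and the labels spell out neither term. Each of the 3 groups held 3 libraries. The labels give no genotype, strain, sex or tissue of origin and name no drug or transgene. They also leave the origin of the replicates unstated, so each p-value reflects only how far these libraries spread, part of which may be technical. Buffer-treated monocytes are the only reference, and both platelet groups were compared with the same 3 control libraries.

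Integrins are paired receptors made of an alpha and a beta chain, and each pair binds its own set of ligands on other cells or in the matrix. Rolling leukocytes first hold on to selectins through PSGL-1, the product of Selplg, then stop and crawl by means of integrins that bind ICAM-1, VCAM-1 or fibronectin. On monocytes the beta 2 chain pairs with alpha L (LFA-1), alpha M (Mac-1) and alpha X, while alpha 4 pairs with beta 1 (VLA-4) or beta 7, and alpha 5 pairs with beta 1 as a fibronectin receptor. PSGL-1 is also the monocyte's ligand for P-selectin on activated platelets, and Mac-1 binds the platelet glycoprotein GPIb.

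Total counts ranged from 29687341 to 35333463 in the P7 platelet libraries, from 30974956 to 34394579 in the adult platelet libraries and from 35314701 to 37065564 in the control libraries. Member counts ran from 711 to 47664 reads in a library. Summed counts of 8 monocyte markers, among them Lyz2 and Csf1r, made up 2.64% ± 0.258 of reads with P7 platelets, 2.80% ± 0.218 with adult platelets and 2.53% ± 0.126 in control (SD, n = 3 each). The markers did not move together. Of the 8, 6 were higher and 1 lower with P7 platelets than in control, with Cd14 1.98-fold and Csf1r 1.66-fold higher and Ccr2 at 0.734 of control, while with adult platelets 3 were higher, among them Fcgr1 and Cx3cr1, and none was lower. Libraries differed in RNA of other cells. Platelet markers held 0.129%, 0.110% and 0.00107% of reads in P7, adult and control libraries, and erythroid markers 4.92%, 0.0973% and 0.00105%. Single platelet markers did not follow their sum. Of 13, 10 were higher and 1, Ppbp, was lower with P7 than with adult platelets, beside 39.6% of all tested genes called. Summed markers of T cells stayed at or below 0.000455% and those of NK cells at or below 4.25e-05% in every library. Apart from the groups, the B and plasma cell transcript Igkc stood at between 409.5 and 771.6 CPM, here without TMM scaling, in 4 libraries (P7 platelet replicate 1, adult platelet replicates 1 and 3, control replicate 1) and at 123.1 to 171.5 in the other 5. The signs of the 19 called member differences were the same in both sets, a description with no test, since the first set holds 1 P7 platelet and 1 control library and the second holds 1 adult platelet library. For all of them but Itgal between P7 and adult platelets, this was fixed in advance, because the group ranges were separate.

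The plot of CPM by library shows all 90 member values. Levels are normalised CPM, meaning reads scaled to a common effective library size, and fold changes are log2 estimates ± SE from edgeR's quasi-likelihood test, where a call needs a p below 0.05 after Benjamini-Hochberg adjustment over all tested genes. Against control, P7 platelets went with 5 higher and 2 lower members of 10, beside 59.2% of all tested genes called (29.9% higher and 29.3% lower). Adult platelets went with 3 higher and 1 lower member, beside 26.4% of all genes (14.3% higher and 12% lower). Between P7 and adult platelets 5 members were higher with P7 platelets and 3 were lower, beside 39.6% of all genes (19.7% higher and 19.8% lower). Over all genes these calls were 4097 higher and 4014 lower with P7 platelets against control, where upper-quartile scaling gave 3279 and 5012, and 2706 higher and 2718 lower for P7 against adult platelets, where it gave 2106 and 3556. The share of called members was 70%, 40% and 80% in these comparisons, and their median log2 fold changes were 0.30, 0.18 and 0.20, where the medians over all genes were -0.01, -0.00 and -0.02. The CPM ranges were separate for 7, 4 and 9 members, beside 69.1%, 42.7% and 49% of all genes.

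**Figure D1:**
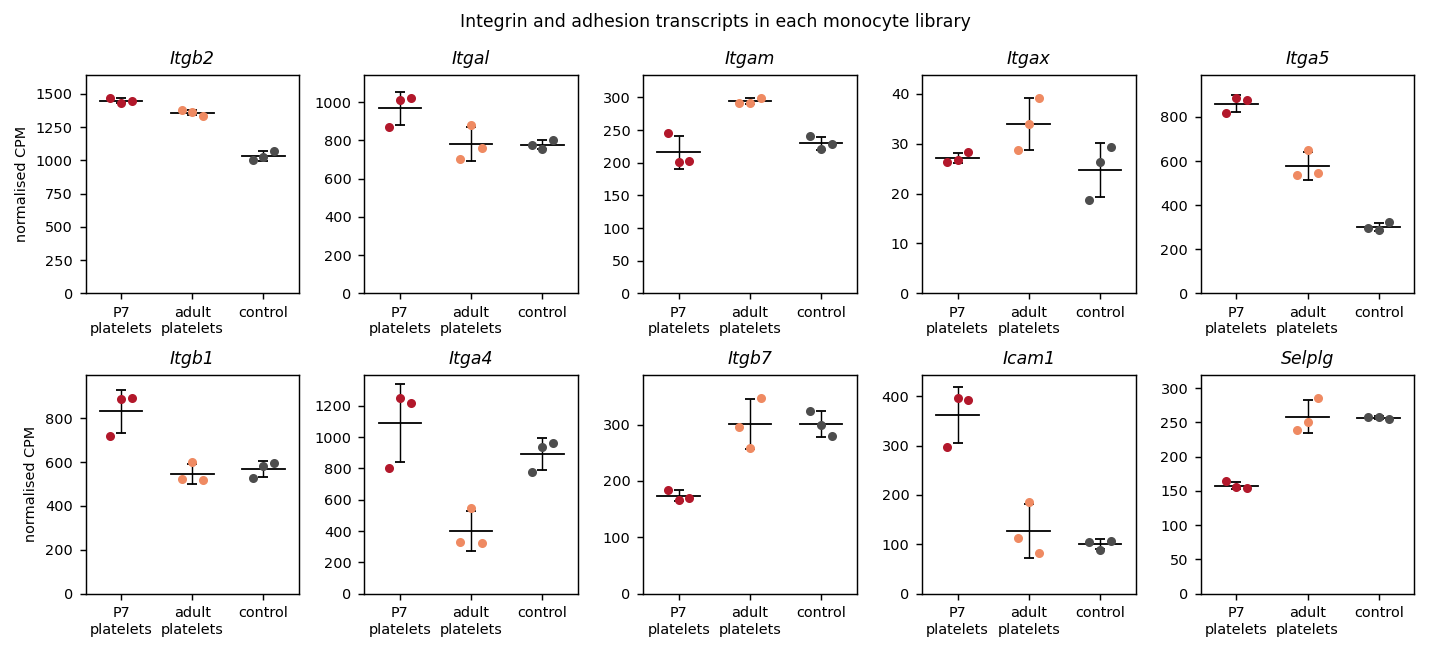
Normalised CPM of the 10 genes (y axis from 0, a scale for each gene) in the 3 libraries of each group (points, replicates 1 to 3 from left to right), with the mean (line) and SD (bar). Itga5 and Itgb2 are higher in both platelet groups than in control, Icam1 is high in the P7 platelet libraries, Itgb7 and Selplg are low there, and Itga4 is low in the adult platelet libraries.

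Promoter windows of the 4 members with the largest rises and falls are shown because these genes set the pattern: Icam1 and Itga5 rose most, Itga4 fell most with adult platelets and Itgb7 fell most with P7 platelets. RefSeq windows on GRCm38.p6, from 250 bases before to 50 after the annotated start, were at hand for 7 of the 10 members, and those of Itgal, Itgb2 and Selplg are not used here. Capitals mark GGAAATTCC, GAGGAA and TATAAA on either strand, none of which overlap one another here. The windows lie at chr9:21015690-21015989 (plus strand, Icam1), chr15:103366742-103367041 (minus strand, Itga5), chr2:79255176-79255475 (plus strand, Itga4) and chr15:102231886-102232185 (minus strand, Itgb7).
Icam1: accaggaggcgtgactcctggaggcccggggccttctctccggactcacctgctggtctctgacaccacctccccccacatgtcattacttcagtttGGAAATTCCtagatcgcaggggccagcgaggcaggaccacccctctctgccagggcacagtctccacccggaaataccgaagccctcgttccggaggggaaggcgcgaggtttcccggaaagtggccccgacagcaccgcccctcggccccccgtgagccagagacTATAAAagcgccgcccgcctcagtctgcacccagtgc
Itga5: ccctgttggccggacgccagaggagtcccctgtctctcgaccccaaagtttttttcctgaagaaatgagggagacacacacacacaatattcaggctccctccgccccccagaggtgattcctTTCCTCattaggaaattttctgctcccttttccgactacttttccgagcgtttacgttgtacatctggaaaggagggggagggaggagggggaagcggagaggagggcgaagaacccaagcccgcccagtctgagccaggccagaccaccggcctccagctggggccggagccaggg
Itga4: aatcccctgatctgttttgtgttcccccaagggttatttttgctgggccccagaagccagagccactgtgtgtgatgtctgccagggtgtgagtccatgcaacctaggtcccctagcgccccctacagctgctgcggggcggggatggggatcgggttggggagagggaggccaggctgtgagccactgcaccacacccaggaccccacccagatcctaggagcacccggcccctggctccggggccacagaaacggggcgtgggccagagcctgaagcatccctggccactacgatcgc
Itgb7: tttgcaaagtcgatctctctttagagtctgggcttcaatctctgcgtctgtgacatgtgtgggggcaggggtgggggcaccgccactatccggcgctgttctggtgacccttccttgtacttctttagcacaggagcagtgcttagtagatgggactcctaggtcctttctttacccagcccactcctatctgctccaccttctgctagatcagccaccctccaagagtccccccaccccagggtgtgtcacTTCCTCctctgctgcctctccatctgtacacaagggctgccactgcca

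Icam1 was the only one of the 7 member promoters with GGAAATTCC, the core of a kappaB element known from the human ICAM1 promoter, and with TATAAA. GGAAATTCC was present in 0.317% of 32851 mouse promoter windows of the same length and TATAAA in 13.6%, and the TATAAA of Icam1 begins 14 bases past the RefSeq start but 32 bases before the start of the gene in GENCODE M21. GAGGAA, a core of sites for the myeloid factor PU.1, was in 4 of the 7 windows (Itga5, Itgam, Itgb1 and Itgb7), beside 28.3% of all windows. The AP-1 sequence TGANTCA was in the Itgax window alone among the members (7.81% of all windows), the GC box GGGCGG in 5 (35.7%), the looser kappaB spacing (GGG, any 5 bases, CC), whose matches on opposite strands overlap in Itgam, in 3 (50.8%), and the interferon response element (GAAA, any 2 bases, GAAA) in none of the 7 (3.44%). These are matches of letters on both strands, not measured binding.

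Icam1 encodes ICAM-1, the immunoglobulin-family ligand of LFA-1 and Mac-1, and had the largest rise of the members. It stood at 296, 396 and 392 CPM in the P7 platelet libraries, at 113, 187 and 81.4 CPM in the adult platelet libraries and at 105, 88.3 and 107 CPM in the control libraries. All P7 platelet libraries lay above all others, while the adult platelet libraries spread to both sides of the control range. With P7 platelets Icam1 rose 3.62-fold over control (log2 1.85 ± 0.26, adjusted p = 0.000256) and stood 2.84-fold above adult platelets (1.51 ± 0.26, adjusted p = 0.00183). Adult platelets against control gave 0.35 ± 0.26 (adjusted p = 0.354, 95% interval -0.23 to 0.92), and without adult platelet replicate 2 that estimate was -0.034. Erythroid markers made up 4.36 to 5.50% of reads with P7 platelets, 0.0481 to 0.180% with adult platelets and 0.000881 to 0.00117% in control. By group, they move with the differences of Icam1 and with those of Itgb1, Itgal, Itgb7 and Selplg between P7 platelets and the other groups. They also move with the difference of Itga4 between P7 and adult platelets. Within the P7 platelet group, replicate 1 held the highest erythroid share (5.50%). That library also held the lowest Icam1, Itgb1, Itgal and Itga4 values of its group and the highest Itgb7 and Selplg values. It was the only P7 platelet library with high Igkc as well (606.3 CPM without TMM scaling, against 171.5 and 134.5). With 1 such library, erythroid share and Igkc cannot be told apart within the group. The part of the erythroid markers in these group differences was not tested. Icam1 lies on chromosome 9 at 21015985 to 21028817 (GENCODE M21, GRCm38, plus strand). Among 9530 genes with a mean log2 CPM of at least 2, those nearest to Icam1 in their profile over the 9 libraries were Arl5c, Tnfaip3 and Clec4e, with root mean square distances of 0.0652, 0.117 and 0.136 on the log2 scale. Tnfaip3, which encodes the NF-kB brake A20, averaged 389 ± 54.1 CPM with P7 platelets, 129.7 ± 50.4 with adult platelets and 99.6 ± 13.2 in control. Clec4e, the gene of the receptor Mincle, averaged 3386 ± 578, 1191 ± 328 and 937 ± 58 CPM in these groups.

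Itga5, the alpha chain of the fibronectin receptor, rose with both kinds of platelets. It stood at 818, 886 and 878 CPM with P7 platelets, at 535, 649 and 545 CPM with adult platelets and at 297, 287 and 321 CPM in control. The 3 groups did not overlap, and the adult platelet libraries lay between the other groups. Itga5 rose 2.85-fold with P7 platelets (1.51 ± 0.08, adjusted p = 1.39e-06) and 1.91-fold with adult platelets (0.93 ± 0.08, adjusted p = 8.75e-05) over control. P7 platelets exceeded adult platelets by 0.58 ± 0.08 on the log2 scale (adjusted p = 0.000705). Itga5 lies on the minus strand of chromosome 15 at 103344286 to 103366763.

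Its partner chain gene Itgb1 was higher with P7 platelets. Itgb1 stood at 717, 887 and 891 CPM with P7 platelets, against 522, 599 and 517 CPM with adult platelets and 529, 584 and 598 CPM in control. The P7 platelet libraries all lay above the rest, and adult platelet and control libraries overlapped. Itgb1 rose by 0.55 ± 0.10 over control (adjusted p = 0.00105) and by 0.61 ± 0.10 over adult platelets (adjusted p = 0.00128). Adult platelets against control gave -0.06 ± 0.10 (adjusted p = 0.677, 95% interval -0.28 to 0.16). Platelets themselves carry beta 1 integrins, among them the fibronectin receptor. Erythroid markers, at 4.92%, 0.0973% and 0.00105% of reads in P7, adult and control libraries, move by group with the rise of Itgb1 and with Itga5. Platelet marker shares, 0.129% and 0.110% with P7 and adult platelets against 0.00107% in control, move by group with the rise of Itga5 in both. Of the 13 single markers, 10 were higher with P7 than with adult platelets, as were Itga5 and Itgb1, and 1, Ppbp, was lower. Within its group, P7 platelet replicate 1 had the highest platelet marker share (0.142%) and the lowest Itga5. Adult platelet replicate 2 had the lowest share of its group (0.0737%) and the highest Itga5. Both libraries also stood apart from the rest of their group in Igkc, at 606.3 and 123.1 CPM without TMM scaling. Within these groups the platelet marker share and Igkc cannot be told apart. The part of either marker set was not tested.

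Itga4, the alpha chain of VLA-4 and of alpha 4 beta 7, was the member that fell furthest with adult platelets. It stood at 803, 1248 and 1217 CPM in the P7 platelet libraries, at 333, 548 and 323 CPM in the adult platelet libraries and at 774, 936 and 965 CPM in the control libraries. Every adult platelet library lay below every other library, while P7 platelet and control libraries overlapped. Itga4 fell to 0.45 of its control level with adult platelets (log2 -1.15 ± 0.23, adjusted p = 0.00643) and stood 2.71-fold higher with P7 than with adult platelets (1.44 ± 0.23, adjusted p = 0.00124). P7 platelets against control gave 0.29 ± 0.23 (adjusted p = 0.3, 95% interval -0.22 to 0.80). In each group the library or libraries with high Igkc had the lowest Itga4 values. With log2 Igkc as a term, Itga4 decreased by 0.237 on the log2 scale per doubling of Igkc (adjusted p = 0.017, beside 6.18% of all genes called for that term), and the comparison of P7 platelets with control gave 0.275 (adjusted p = 0.0443). Itgb1 was the other member called for that term (-0.0963 per doubling, adjusted p = 0.0321). The difference between adult platelets and control was -1.24 among the libraries with high Igkc (2 adult platelet libraries and 1 control library) and -0.80 among the others (1 adult platelet library and 2 control libraries), too few to test. Itga4 lies on the plus strand of chromosome 2 at 79255426 to 79333123, and 1124 of its exonic bases are shared with Cerkl on the opposite strand, which held 14 to 63 reads in a library.

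Alpha 4 and alpha 5 both serve as fibronectin-binding partners of beta 1, and the ranges of their balance were separate in the 3 groups. As a share of the summed level of both genes per exon length, Itga4 made up 25.7, 33.2 and 32.9% in the P7 platelet libraries, 18.0, 23.0 and 17.3% in the adult platelet libraries and 47.9, 53.5 and 51.5% in the control libraries. Control libraries held the highest shares and adult platelet libraries the lowest. This pair was set side by side after the values were seen, and no test was made of it.

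**Figure D2:**
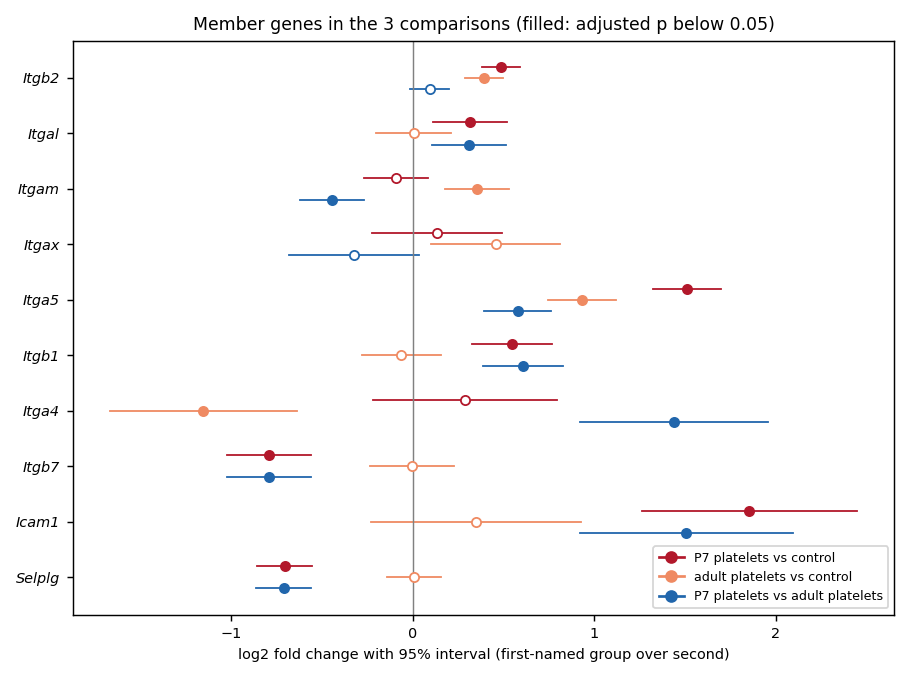
Log2 fold change of each member (x axis) with its 95% interval in the 3 comparisons (colours), first-named group over second, with filled points for an adjusted p below 0.05. Itga4 lies at -1.15 for adult platelets vs control and at 0.29 for P7 platelets vs control, and Itgb7 and Selplg lie below 0 in both comparisons of P7 platelets and near 0 for adult platelets vs control.

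Itgb7, the beta chain that alpha 4 shares with gut-homing lymphocytes, fell with P7 platelets. Its values were 184, 167 and 171 CPM with P7 platelets, 296, 259 and 347 CPM with adult platelets and 325, 299.5 and 279.6 CPM in control. The P7 platelet libraries all lay below the rest, which overlapped among themselves. Itgb7 decreased by 0.79 ± 0.10 with P7 platelets against control (log2, adjusted p = 0.00015) and by 0.79 ± 0.10 against adult platelets (adjusted p = 0.00049). Adult platelets against control gave -0.00 ± 0.10 (adjusted p = 0.988, 95% interval -0.23 to 0.23). Dendritic cells also express Itgb7 and Itgax. Summed counts of 6 dendritic cell markers made up 0.00398% ± 0.00077 with P7 platelets, 0.00684% ± 0.00212 with adult platelets and 0.00733% ± 0.001 in control, with ranges of 0.00309 to 0.00442%, 0.00454 to 0.00871% and 0.0064 to 0.00839%. Of the 5 that could be tested, Cd209a and Flt3 were lower and Zbtb46 was higher with P7 platelets than in control, and the sixth, Xcr1, held 0 to 3 reads in a library. Their part in the fall of Itgb7 was not tested. Genes nearest to Itgb7 in profile were Pak1, Acap1 and Usf1, at root mean square distances of 0.0555, 0.0581 and 0.0641. Pak1, a kinase of cytoskeletal signalling, averaged 12.9 ± 0.458 CPM with P7 platelets, 21.6 ± 2.43 with adult platelets and 20.7 ± 1.42 in control. Itgb7 lies on the minus strand of chromosome 15 at 102215995 to 102231944.

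As a share of both beta partners of alpha 4 per exon length, Itgb7 made up 27.5, 21.7 and 22.0% with P7 platelets, 45.6, 38.9 and 49.7% with adult platelets and 47.5, 43.0 and 40.8% in control. The P7 platelet libraries lay below all others. Their lower Itgb7 and higher Itgb1 values, given above, already fix this order and the permutation p for P7 platelets. Beta 1 also pairs with alpha 5, so this share does not measure what alpha 4 pairs with. The mean share was 23.7% ± 3.24 with P7 platelets against 43.8% ± 3.41 in control and 44.7% ± 5.43 with adult platelets (SD, n = 3 each; exact two-sided permutation test, p = 0.1 for each comparison of P7 platelets, the smallest that 3 against 3 allows). Adult platelets and control differed by 0.936 percentage points (exact permutation p = 0.8).

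Selplg, which encodes PSGL-1, also fell with P7 platelets. It stood at 164, 155 and 154 CPM in the P7 platelet libraries, at 238, 251 and 285 CPM in the adult platelet libraries and at 258, 258 and 254 CPM in the control libraries. The P7 platelet values were tightly grouped below all others, and the adult platelet values spanned the control range. Selplg decreased by 0.70 ± 0.07 against control (adjusted p = 2.45e-05) and by 0.71 ± 0.07 against adult platelets (adjusted p = 0.000106). For adult platelets against control the estimate was 0.01 ± 0.07 (adjusted p = 0.947, 95% interval -0.14 to 0.16). Neutrophils carry PSGL-1 and Mac-1 too. The summed share of 8 neutrophil markers ranged from 0.00981 to 0.0129% with P7 platelets, from 0.0149 to 0.0261% with adult platelets and from 0.0142 to 0.0171% in control, and none of the 8 was at 0 in any library. Of 7 that could be tested, Elane was lower with P7 platelets than in control (-0.62 ± 0.20, adjusted p = 0.0225) and none was higher. The other 6 were not called in that comparison. Mmp8 had the highest level of the 8, averaging 65.2 CPM with P7 platelets and 72.6 in control. The part of these markers in the differences of Selplg and Itgam was not tested. In bulk RNA, fewer cells of a type and less RNA per cell cannot be told apart. Selplg lies on the minus strand of chromosome 5 at 113818536 to 113832644.

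PSGL-1 binds selectins only after fucosyl-, sialyl- and sulfotransferases have modified it. Of 12 tested genes of that pathway, 3 were higher and 4 lower with P7 platelets than in control, 4 higher and 2 lower with adult platelets than in control, and 3 higher and 7 lower with P7 than with adult platelets, with list medians of -0.04, -0.01 and -0.35. These calls are 58.3%, 50% and 83.3% of the list, beside 59.2%, 26.4% and 39.6% of all tested genes. Fut7, the fucosyltransferase that completes the selectin ligand, averaged 8.27 ± 0.271 CPM with P7 platelets, 13.8 ± 1.43 with adult platelets and 18.8 ± 1.01 in control, without overlap between the groups. It decreased by 1.19 ± 0.08 with P7 platelets (adjusted p = 4.96e-06) and by 0.44 ± 0.08 with adult platelets (adjusted p = 0.00444) against control, and by 0.74 ± 0.09 between P7 and adult platelets (adjusted p = 0.000263). Slc35c1, the Golgi transporter of GDP-fucose, decreased by 0.41 ± 0.04 with P7 platelets against control (adjusted p = 4.51e-05). Tpst1, a tyrosine sulfotransferase, rose by 1.11 ± 0.14 in that comparison, and C1galt1, which builds the core of O-glycans, by 0.59 ± 0.12. Gcnt1, the enzyme that branches these cores, was 1.46 ± 0.17 higher with adult platelets than in control (adjusted p = 0.000489) and gave 0.11 ± 0.18 with P7 platelets (adjusted p = 0.615). C1galt1c1 and B4galt1 also rose with adult platelets over control (0.60 ± 0.07 and 0.49 ± 0.12).

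The beta 2 chain gene Itgb2 was the most abundant member and rose with both kinds of platelets. It stood at 1469, 1433 and 1447 CPM with P7 platelets, at 1376, 1364 and 1337 CPM with adult platelets and at 1003, 1028 and 1074 CPM in control. Every platelet library lay above every control library, and the P7 values lay just above the adult values. Itgb2 rose by 0.49 ± 0.05 with P7 platelets (adjusted p = 2.59e-05) and by 0.39 ± 0.05 with adult platelets (adjusted p = 0.00049) over control. The difference between P7 and adult platelets was 0.09 ± 0.05 (adjusted p = 0.147, 95% interval -0.01 to 0.20). Itgb2 lies on chromosome 10 at 77530252 to 77565708.

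Alpha chain genes of the beta 2 family lie together on chromosome 7, with Itgal at 127296260 to 127335138, Itgam at 128062640 to 128118491 and Itgax at 128129547 to 128150657, all on the plus strand. Itgam and Itgax are separated by 11055 bases, and Itgad follows Itgax after 3718 bases. Itgam, the alpha chain of Mac-1 (CD11b), stood at 245, 201 and 203 CPM with P7 platelets, at 292, 292 and 299 CPM with adult platelets and at 241, 220 and 229 CPM in control. All adult platelet libraries exceeded all others, and P7 platelet and control libraries overlapped. Itgam rose by 0.36 ± 0.08 with adult platelets over control (adjusted p = 0.0101) and was 0.45 ± 0.08 lower with P7 than with adult platelets (adjusted p = 0.002, log2 -0.45). With P7 platelets against control it gave -0.09 ± 0.08 (adjusted p = 0.354), and without P7 platelet replicate 1 it gave -0.189 (adjusted p = 0.0178). The rise with adult platelets had an adjusted p = 0.05 without control replicate 2.

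Itgal, the alpha chain of LFA-1 (CD11a), stood at 869, 1014 and 1022 CPM with P7 platelets, at 704, 879 and 759 CPM with adult platelets and at 774, 756 and 803 CPM in control. P7 platelet libraries lay above the control libraries, and 1 adult platelet library reached into the P7 range. Itgal rose by 0.32 ± 0.09 with P7 platelets over control (adjusted p = 0.0141) and was 0.31 ± 0.09 higher with P7 than with adult platelets (adjusted p = 0.0233). Adult platelets against control gave 0.01 ± 0.09 (adjusted p = 0.973). Against control the call was lost with upper-quartile scaling (adjusted p = 0.0572). Leaving out P7 platelet replicate 2 or 3, or else control replicate 2, also ended it (adjusted p = 0.0524 to 0.0541). The call against adult platelets was lost with upper-quartile scaling, with only those groups in the fit, and without P7 platelet replicate 2 or 3 or adult platelet replicate 1 or 3 (adjusted p = 0.0523 to 0.0877).

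Itgax, the CD11c gene, had the lowest level of the members, at 26.3, 26.8 and 28.3 CPM with P7 platelets, 28.7, 34.0 and 39.1 CPM with adult platelets and 18.7, 26.3 and 29.3 CPM in control. Its control values spanned the P7 range. No comparison passed the test: P7 platelets against control gave 0.13 ± 0.16 (adjusted p = 0.498, 95% interval -0.22 to 0.49), adult platelets against control 0.46 ± 0.16 (adjusted p = 0.0603, 0.10 to 0.81) and P7 against adult platelets -0.32 ± 0.16 (adjusted p = 0.139, -0.68 to 0.03). The comparison of adult platelets with control passed once replicate 1 of the adult platelet libraries was left out (0.563, adjusted p = 0.0417), and likewise with control replicate 3 left out (0.594, adjusted p = 0.0405). P7 against adult platelets passed without control replicate 1 (-0.324, adjusted p = 0.0423).

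The make-up of the beta 2 partners lay to opposite sides of control with the 2 kinds of platelets. Of the summed level per exon length of Itgal, Itgam, Itgax and Itgad, Itgam made up 26.2, 20.0 and 20.0% with P7 platelets, 33.9, 29.2 and 32.5% with adult platelets and 28.2, 26.7 and 26.2% in control. P7 platelet libraries lay below the control range, by less than 0.1 percentage point for replicate 1, and adult platelet libraries lay above it. Mean differences from control were -4.98 percentage points with P7 and 4.84 with adult platelets (exact two-sided permutation p = 0.1 each, the smallest possible). Itgal made up 75.1% ± 3.61 with P7 platelets, 64.3% ± 2.59 with adult platelets and 69.9% ± 0.403 in control (SD, n = 3 each; exact permutation p = 0.1 in each comparison). The level of Itgam relative to Itgal rests on the length used. Of 5024 exonic bases of Itgam, all but 1574 are shared with the same-strand gene model Gm49368, which held 4 to 17 reads in a library, and the sources used here do not say how reads in shared exons were counted. With the 1574 unshared bases as length, Itgam made up 47.3% with P7 platelets, 59.8% with adult platelets and 54.1% in control, in the same order of groups.

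**Figure D3:**
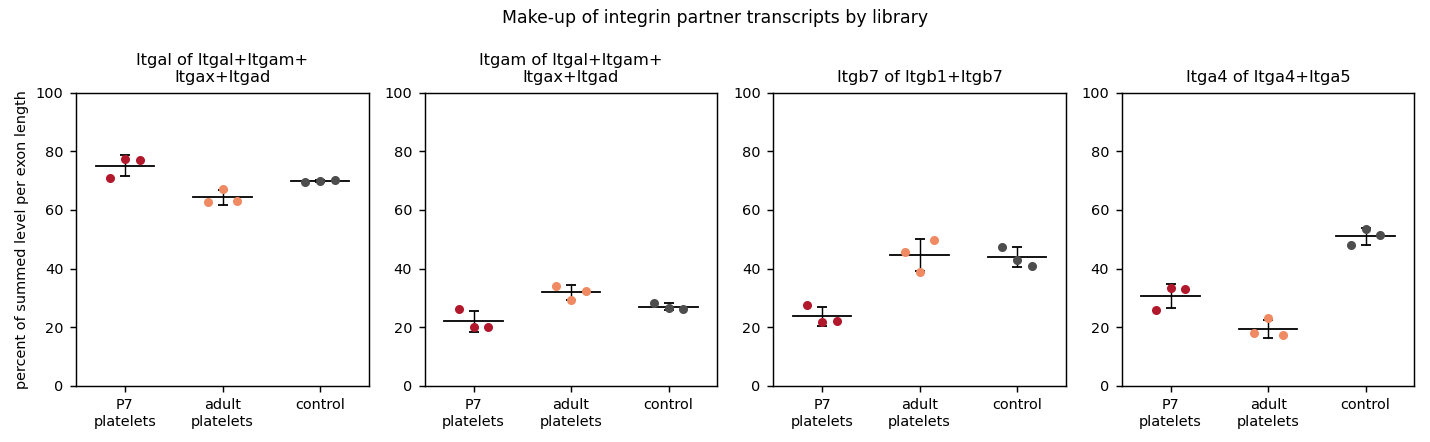
Share of Itgal and Itgam among the beta 2 partner genes, of Itgb7 among both beta partners of alpha 4, and of Itga4 in the sum of Itga4 and Itga5, in percent of the summed level per exon length (y axis, 0 to 100), for each library (points) with mean (line) and SD (bar). Itgb7 is at 21.7 to 27.5% with P7 platelets and at 38.9% or above in all other libraries.

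Per kilobase of exon, Itgb2 led in every group, at 475 ± 5.99 CPM per kb with P7 platelets, 445 ± 6.47 with adult platelets and 339 ± 11.9 in control. Itgb1 followed in every group, at 204 ± 24.3, 134 ± 11.2 and 139.7 ± 8.95 CPM per kb, and Itgax was lowest, at 5.65 ± 0.213, 7.07 ± 1.09 and 5.15 ± 1.13. In control the order then ran Itgal, Itgb7, Itga4, Itga5, Selplg, Itgam and Icam1, where the libraries of Itgal and Itgb7, of Itga4 and Itga5, and of Itga5 and Selplg overlapped. With P7 platelets it ran Itga5, Itgal, Icam1, Itga4, Itgb7, Itgam and Selplg, where Itgb1 and Itga5, Icam1 and Itga4, and Itga4 and Itgb7 overlapped. With adult platelets it ran Itgal, Itga5, Itgb7, Selplg, Itgam, Icam1 and Itga4, where the 4 genes from Itgb1 to Itgb7 each overlapped the next, as did Selplg and Itgam, and Icam1 and Itga4. Icam1 was thus at rank 5 with P7 platelets, 8 with adult platelets and 9 in control. Itgam would stand higher in each order with its unshared length. That length gave 137 CPM per kb with P7 platelets, 187 with adult platelets and 146 in control. Other ranks rest on the length as well: Selplg has 4272 exonic bases but a longest transcript of 2314, and Itgal 6569 and 5222. Ranks by transcript length are not reported here.

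**Figure D4:**
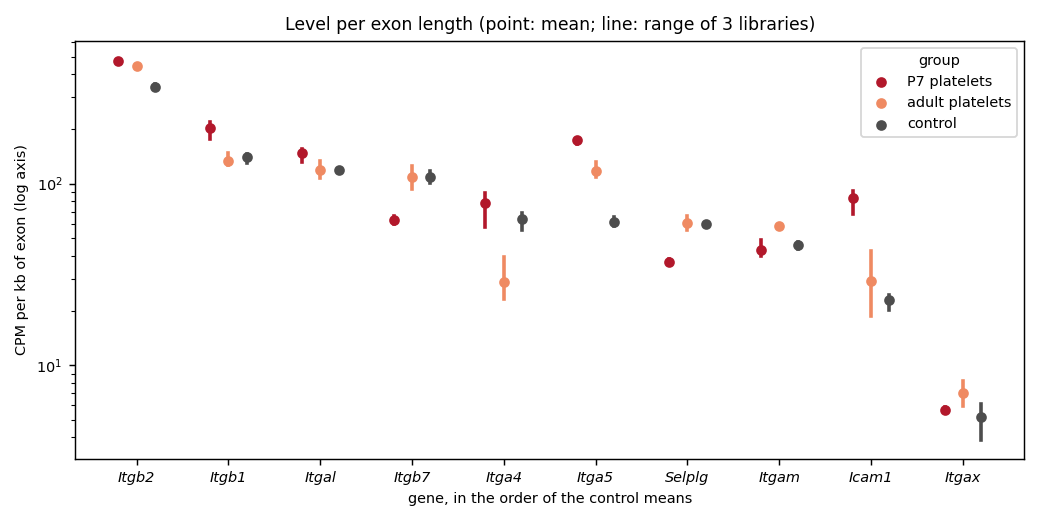
CPM per kilobase of exon (log y axis) of the 10 genes, in the order of their control means (x axis), with the mean (point) and range (line) of the 3 libraries of each group. Itgb2 leads and Itgax is lowest in every group, while Icam1, Itga4 and Itga5 change places between groups.

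Adult platelet libraries spread furthest for Icam1 and Itga4. The coefficient of variation of Icam1 was 42.5% with adult platelets, 15.6% with P7 platelets and 10.1% in control, and that of Itga4 was 31.7%, 22.8% and 11.5% in the same groups. Adult platelet replicate 2 held the highest value of its group for Itga4, Itga5, Itgal, Itgb1 and Icam1 and the lowest for Itgb7. P7 platelet replicate 1 held the lowest value of its group for Itga4, Itga5, Itgal, Itgb1, Itgax and Icam1 and the highest for Itgam, Itgb2, Itgb7 and Selplg.

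Among other integrin subunits Itga2b had the largest rise in both comparisons with control. Of 18 listed, 15 could be tested: 7 were higher and 3 lower with P7 platelets than in control, 6 and 1 with adult platelets than in control, and 5 and 2 with P7 than with adult platelets, with list medians of 0.23, 0.08 and -0.28. The called share was 66.7%, 46.7% and 46.7% of this list, where all genes had 59.2%, 26.4% and 39.6%. Itga2b, the alpha IIb chain of the platelet fibrinogen receptor and itself 1 of the 13 platelet markers summed above, averaged 422 ± 8.17 CPM with P7 platelets, 163 ± 54.2 with adult platelets and 7.94 ± 3.43 in control. Its partner Itgb3 averaged 83.1 ± 2.99, 38.2 ± 9.82 and 14.7 ± 3.34 CPM in these groups. Itga6, a laminin receptor chain that platelets also carry, rose with both kinds of platelets over control (1.58 ± 0.21 and 1.94 ± 0.21), as did Itga2 of the platelet collagen receptor (1.65 ± 0.24 and 2.06 ± 0.23). Itgb4, the beta chain partner of alpha 6, averaged 1.43 CPM with P7 platelets, 0.560 with adult platelets and 0.0934 in control, where it had only a few reads. Itgb8, a beta chain that pairs with alpha V, averaged 15.2 ± 6.0 CPM with P7 platelets, 1.27 ± 0.841 with adult platelets and 1.39 ± 0.44 in control, and was 3.57 ± 0.47 higher with P7 than with adult platelets (adjusted p = 0.000513). Itgb5, another partner of alpha V, was lower with P7 than with adult platelets (-0.78 ± 0.13, adjusted p = 0.00141), and so was Itga8 (-1.01 ± 0.19, adjusted p = 0.00301).

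Among 16 tested of 20 listed other adhesion receptors and ligands, 4 were higher and 4 lower with P7 platelets than in control, 3 and 1 with adult platelets than in control, and 3 and 5 with P7 than with adult platelets, with medians of 0.05, 0.06 and -0.15. That is 50%, 25% and 50% of the list, against 59.2%, 26.4% and 39.6% of all genes. Esam, an adhesion molecule of endothelium and platelets, averaged 7.61 ± 1.06 CPM with P7 platelets, 5.36 ± 1.57 with adult platelets and 0.0682 ± 0.0159 in control. Cd226, the receptor DNAM-1, averaged 15.1 ± 2.21, 29.3 ± 7.22 and 1.05 ± 0.175 CPM in these groups. The platelet marker shares move with both genes, and their part was not tested. Jam2, a junctional adhesion molecule, was higher with P7 platelets than in control (1.33 ± 0.13) and than with adult platelets (1.31 ± 0.13). F11r, the JAM-A gene, was higher with adult platelets than in control (1.56 ± 0.18) and lower with P7 than with adult platelets (-1.17 ± 0.18). Cd99l2 and Cd34 were lower with P7 than with adult platelets (-0.84 ± 0.12 and -1.36 ± 0.19). Spn, the CD43 gene, was lower with adult platelets than in control (-0.35 ± 0.05, adjusted p = 0.00138). Vcam1, Selp and Pecam1 passed in no comparison and averaged 2.04, 2.73 and 37.6 CPM with P7 platelets, 1.41, 4.66 and 39.7 CPM with adult platelets and 0.912, 3.8 and 31.4 CPM in control.

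Integrins bind firmly once talin, kindlin and the small GTPase Rap1 act on their tails. Of 30 tested genes of this machinery, out of 32 listed, 16 were higher and 8 lower with P7 platelets than in control, 11 and 4 with adult platelets than in control, and 11 and 6 with P7 than with adult platelets, with medians of 0.28, 0.01 and 0.13. Called genes thus made up 80%, 50% and 56.7% of the list and 59.2%, 26.4% and 39.6% of all genes. Rap1b, a gene of that GTPase, averaged 1008 ± 19.9 CPM with P7 platelets, 722 ± 48.0 with adult platelets and 579 ± 4.39 in control. It was higher with P7 platelets (0.80 ± 0.06) and with adult platelets (0.32 ± 0.06) than in control, and higher with P7 than with adult platelets (0.48 ± 0.06, adjusted p = 0.000288). Fgr, a Src-family kinase gene that acts downstream of beta 2 integrins, rose with P7 platelets over control by 1.51 ± 0.11, and the adaptor gene Fyb by 1.20 ± 0.14. Fgr also rose with adult platelets (0.77 ± 0.11). Vcl and Lims1, whose products link integrins to actin, were higher with P7 than with adult platelets (0.54 ± 0.06 and 0.69 ± 0.10). Parvg and Zyx, also of adhesion sites, were higher with adult platelets than in control (0.46 ± 0.06 and 0.40 ± 0.07).

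**Figure D5:**
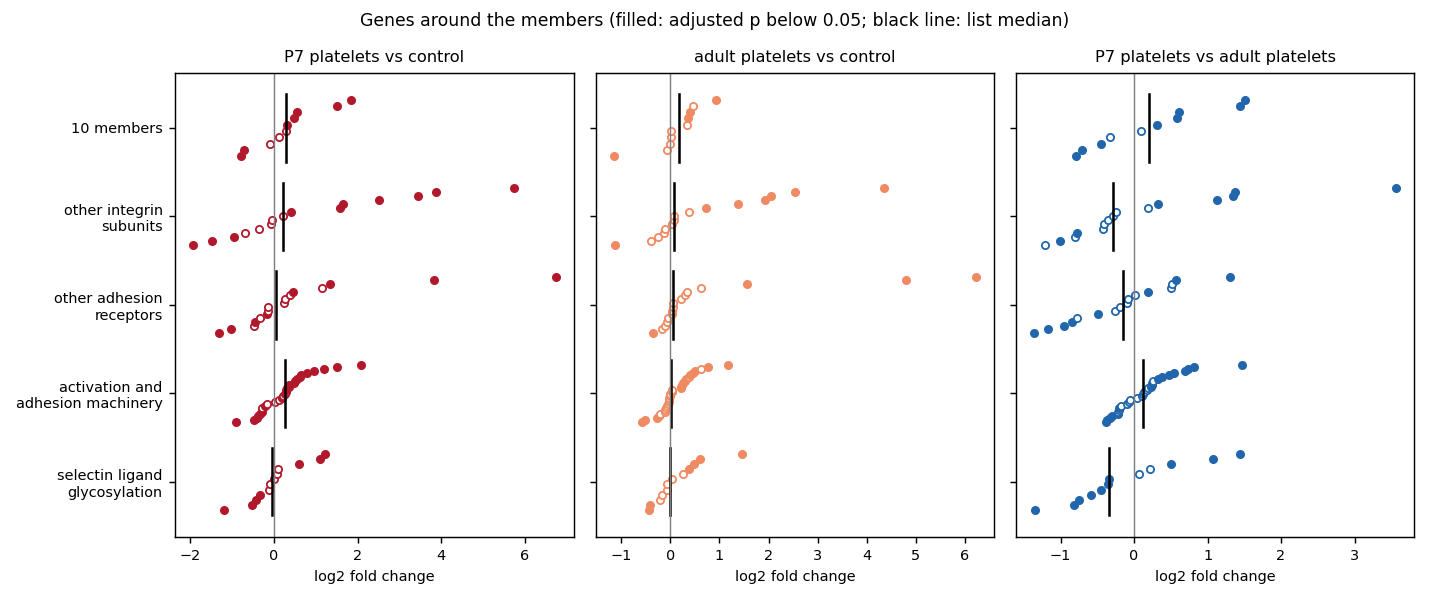
Log2 fold change (x axis, a scale for each comparison) of every tested gene of the 5 lists, 1 panel for each comparison, with filled points for an adjusted p below 0.05 and a black line at each list's median. Esam is the point farthest to the right in both comparisons with control, and Itgb8 in the comparison of P7 with adult platelets.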

How the data were processed

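Polyadenylated RNA of 9 monocyte samples was made into stranded libraries and read as 75 nt single ends. The authors deposited raw counts of reads for each gene symbol, not normalised. Tools listed in the submitters' processing notes, with neither role nor order, are Salmon 1.3.0, featureCounts, Subread 2.0.1, STAR 2.7.6a and fastp 0.20.1. For genome build, annotation and strand setting the entry is: not given in the sources used here. Without the strand setting, reads of a gene and its antisense partner cannot be told apart. Positions and lengths come from GENCODE M21, whose gene names match 53292 of 55367 symbols, and promoters from RefSeq.

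Counts were fitted with edgeR 4.0.16 in R 4.3.3 (quasi-likelihood, 1 mean per group over all 9 libraries, TMM, filterByExpr with a minimum count of 10), which kept 13707 genes, with 6 residual degrees of freedom. TMM factors ranged from 0.8817 to 1.1. Shares were tested by exact permutation in SciPy 1.17.1. CPM per kb used the union of annotated exons. Alternatives were DESeq2 1.42.0 size factors and Wald test, upper-quartile factors, limma-voom (limma 3.58.1), other filters, other sets of libraries, an Igkc term and a replicate block. The method was tested on simulated data. Same-numbered libraries of P7 platelets and control deviated together (correlations from 0.209 to 0.576). Differently numbered pairs of replicates 2 and 3 of these groups did so too (0.205 and 0.307). In each comparison with adult platelets 1 same-numbered pair did not deviate together (-0.081 and -0.077). Named genes are the members, up to 4 called genes by smallest p for each other list and comparison, 6 genes by name, and 3 nearest profiles for the member with the largest rise and the largest fall with P7 platelets. Marker genes, Igkc, Gm49368 and Cerkl are named besides, after their values were seen. Some genes that this rule picks are not reported here. Members and lists were chosen with earlier results of these data known.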

Additional observations from a re-analysis of the deposited data

Results flagged for a closer look

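The effects of P7 and adult platelets on Itga4 differed. Itga4 was 1.44 ± 0.23 higher on the log2 scale with P7 than with adult platelets (adjusted p = 0.00124, edgeR), while against control it gave 0.29 with P7 platelets, which did not pass the test, and -1.15 with adult platelets. Every P7 platelet library lay above every adult platelet library.

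Itgam likewise gave estimates of opposite sign, -0.09 with P7 platelets, which did not pass, and 0.36 with adult platelets against control. The direct comparison of P7 with adult platelets gave -0.45 ± 0.08 (adjusted p = 0.002, edgeR), and every P7 platelet library lay below every adult platelet library.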

How the results depend on the processing

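Of 300 values of the 30 member comparisons under other settings, 284 kept direction and side of the threshold, and of 270 with 1 library left out, 250 did. Estimates that changed sign were not called under any setting run. For adult platelets against control, Itgal was -0.025 with upper-quartile scaling, -0.001 with limma-voom and -0.001 with the replicate block, Selplg was -0.021 with upper-quartile scaling, and Itgb7 was 0.001 with only those groups in the fit. With 1 library left out, adult platelets against control ranged from -0.084 to 0.075 for Itgal, from -0.118 to 0.098 for Itgb7, from -0.07 to 0.063 for Selplg and from -0.034 to 0.585 for Icam1, and P7 platelets against control from -0.034 to 0.271 for Itgax. The cause was not tested. Itgax was called for adult platelets against control with no filter (0.458), the DESeq2 Wald test (0.456), the replicate block (0.464) and the Igkc term (0.532), and for P7 against adult platelets with the block (-0.309) and the Igkc term (-0.379). Itgb2 passed for P7 against adult platelets with the DESeq2 Wald test (0.106, adjusted p = 0.0368). Genes called for adult platelets against control were 3617, from 2031 without control replicate 2 and 2207 without control replicate 3 to 3774 with 1 library left out, and the smaller fits hold fewer samples. With the replicate block 8565, 4228 and 5965 genes were called for P7 platelets against control, adult platelets against control and P7 against adult platelets, beside 8111, 3617 and 5424 without it, no member's call changed for P7 platelets against control, and 4 of 9 libraries correlated best with their own number in both other groups. Upper-quartile scaling moved the median log2 fold change of all genes with P7 platelets against control to -0.115, and the share of calls that were higher was 39.5% against 50.5%, and 37.2% against 49.9% for P7 against adult platelets. With unshared exon lengths the difference in the Itgax share between P7 and adult platelets was -0.309 percentage points in place of -0.946, an alternative chosen after seeing the data. Every member had at least 711 reads in each library.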
